A study of Mus musculus with 9 samples.

Results

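The 45 genes described here mark the cells of the retina that surround its vessels: 16 genes of photoreceptors, 16 of inner retinal neurons and 13 of Muller glia and astrocytes. They were measured in RNA from retinal cells that had been sorted as endothelial. Their members are all probe sets, on any of 3 array designs, whose platform annotation gave exactly 1 gene symbol and whose symbol was on this list. The rule found 81 of 36701 probe sets, with at least 1 probe set for every one of the 45 genes, of 15964 genes named in all. Of these, 19 probe sets belonged to photoreceptor genes, 33 to neuronal genes and 29 to glial genes.

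All 9 arrays came from 1 group of animals: pups homozygous for a Tie2-GFP transgene, in which the endothelial promoter of Tie2 drives GFP, given APB5, a neutralizing antibody against the pericyte receptor PDGFRb, by intraperitoneal injection from postnatal day 0 to day 7, and used at day 8. Retinas were pooled, digested with papain, and GFP-positive cells were sorted with propidium iodide in the staining solution. The RNA was amplified, labelled with biotin and hybridised to the complementary Affymetrix MG-U74v2 designs A, B and C, with 3 replicate arrays of each. No array carried untreated animals, unsorted retina or GFP-negative cells, so no effect of the antibody and no enrichment over whole retina could be computed, and nothing in the labels states that the replicates were separate pools. Each SD and p-value below therefore reflects differences between arrays that may be technical. The Tie2 promoter is also active in some blood cells, and the sort gate is not described further.

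In the retina, rods and cones catch light with opsins and pass it through transducin, a phosphodiesterase and a cyclic nucleotide-gated channel. Bipolar, horizontal, amacrine and ganglion cells carry the signal inwards, and Muller glia and astrocytes clear glutamate and potassium and wrap the vessels. Photoreceptors are the most numerous cells of the mouse retina, and their genes, like those of neurons and glia, are commonly read as a measure of other cells in a vascular preparation.

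Signal is given as intensity, the authors' linear value of a probe set, and as position, the percentile of that intensity among all probe sets of the same array. Probe sets differ in how well they hybridise, so neither scale orders different genes by transcript level. The test used throughout was a two-sided limma fit on each design, over all its probe sets, of log2 intensity minus the median log2 intensity of the array. A probe set was called above or below the array median when the Benjamini-Hochberg adjusted p was under 0.05. In bulk RNA, a few cells with much transcript and many cells with little cannot be told apart.

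The sort carried strong endothelial signal. Tek, which encodes Tie2, stood at position 92.6 ± 0.261 and the endothelial cadherin Cdh5 at 98.8 ± 0.489 (SD, n = 3, design A). Of 52 probe sets of 26 pan-endothelial genes, 38 were called above the median (73.1%, against 44.1% of all probe sets) and 12 below (23.1%, against 44%). Their median position was 88.7. By gene, 16 had every probe set called above (32.9% of all named genes did) and 2, Egfl7 and S1pr1, every one below (28.2%). Pecam1, with 1 probe set at 52.4 ± 2.47, was not called, nor was 1 of 2 Kdr probe sets (49.6 ± 1.64). Median intensities of the arrays ranged from 43.58 to 44.32 for design A, from 42.94 to 44.51 for design B and from 32.33 to 32.88 for design C, with the authors' scaling unknown. The number of arrays limits the precision.

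Most probe sets of the retinal cell genes lay low on the arrays, and a minority lay high. Of the 81, limma called 56 below the array median and 17 above, and 8 were not called. Over all 36701 probe sets, 44% were called below and 44.1% above, whereas for the retinal cell genes the shares were 69.1% and 21.0%. Their median position was 32.6 and their median log2 intensity was 0.62 under the array median (-0.62). By class, 12 of 19 photoreceptor probe sets were called below and 4 above, 23 of 33 neuronal ones below and 8 above, and 21 of 29 glial ones below and 5 above. Median positions were 39.5 for photoreceptor, 25.5 for neuronal and 34.8 for glial genes. By design, 11 of 54 probe sets were called above on A (44.4% of all probe sets there), 3 of 20 on B (44.1%) and 3 of 7 on C (43.8%), and 36, 16 and 4 below (44.3%, 44% and 43.7% of all). These shares are descriptions, no test of the list was made, and the source of the signal called above was not tested.

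**Figure D1:**
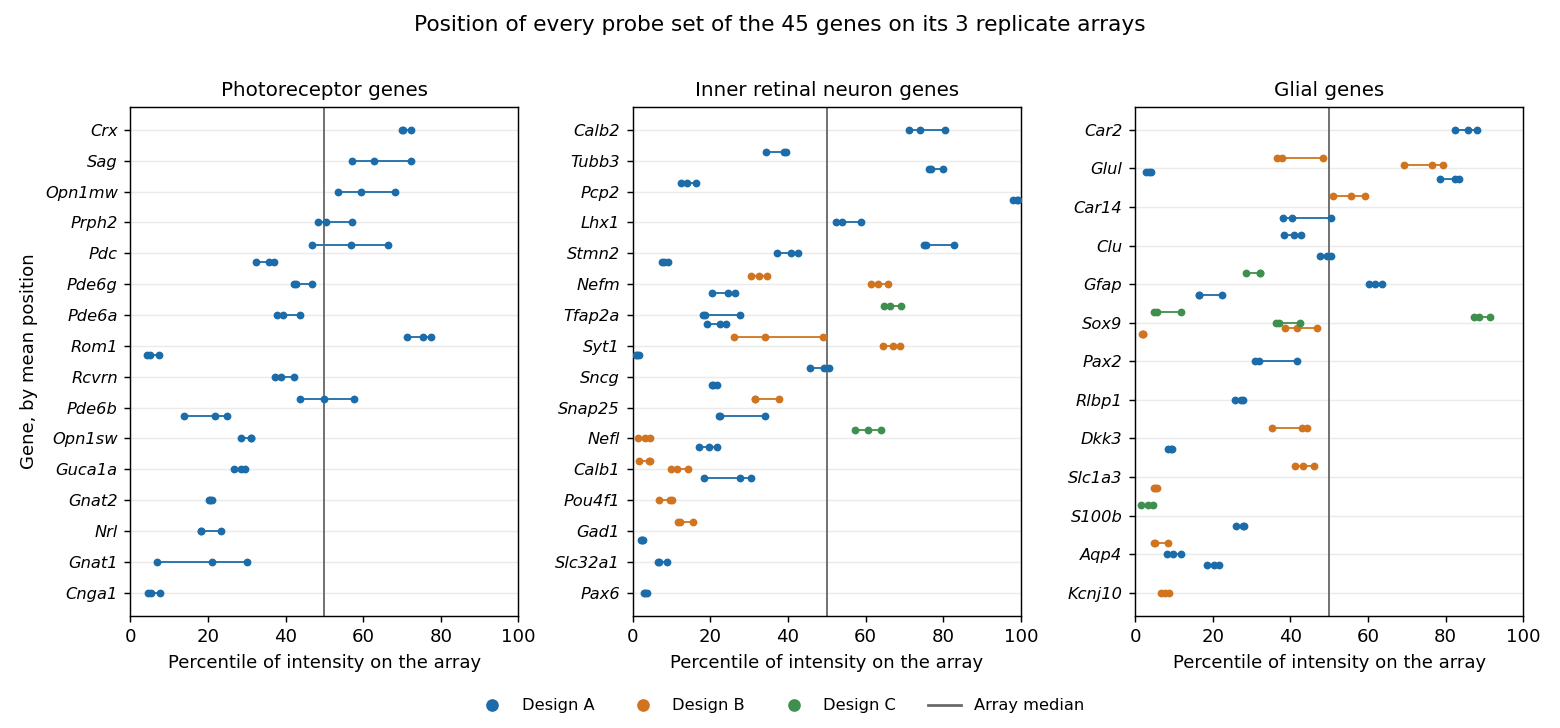
Position of each probe set of the 45 genes (percentile of intensity on its array, horizontal) on the 3 replicate arrays, by class; each dot is 1 array, a line joins the replicates of a probe set, and colour gives the array design. Most probe sets lie left of the array median, and several genes have probe sets on both sides of it.

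Counted by gene, 22 of the 45 had every probe set called below the median (48.9%, against 28.2% of all 15964 named genes) and 5 had every probe set called above it (11.1%, against 32.9%). The 5 were Crx, Sag and Opn1mw of photoreceptors, Calb2 of neurons and Car2 of glia, each with 1 probe set. Another 11 genes had probe sets called on both sides, and each of the remaining 7 had at least 1 probe set that was not called. Of the 23 genes with more than 1 probe set, 11 lay on both sides (47.8%), close to the 49.0% among the 7645 named genes with more than 1.

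To place these positions beside transcripts from unrelated organs, 47 genes of liver, pancreas, testis, pituitary, lung, muscle and other tissues, called tissue-foreign here, were read on the same arrays. Their 75 probe sets had a median position of 29.5, with 51 called below the median and 17 above. The shares, 68.0% below and 22.7% above, lay close to those of the retinal cell genes. Some tissue-foreign probe sets nevertheless stood high, such as the surfactant protein gene Sftpb at 71.2 ± 2.94 on design A and a probe set of the sperm protamine gene Prm1 at 90.3 ± 1.06 on design C (SD, n = 3). That Prm1 probe set is marked for reduced selection rules, and the other Prm1 probe set, marked for a gene family, was called below at 10.2 ± 0.702 on design A. A position in the upper range was therefore also reached by genes of organs not sampled here. Mural genes had a median position of 39.4 (24 probe sets, 4 called above), with Pdgfrb at 38.8 ± 9.15. Pigment epithelium and lens genes had a median of 41.4 (26 probe sets, 8 above) and microglial genes one of 43.9 (26 probe sets, 8 above).

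**Figure D2:**
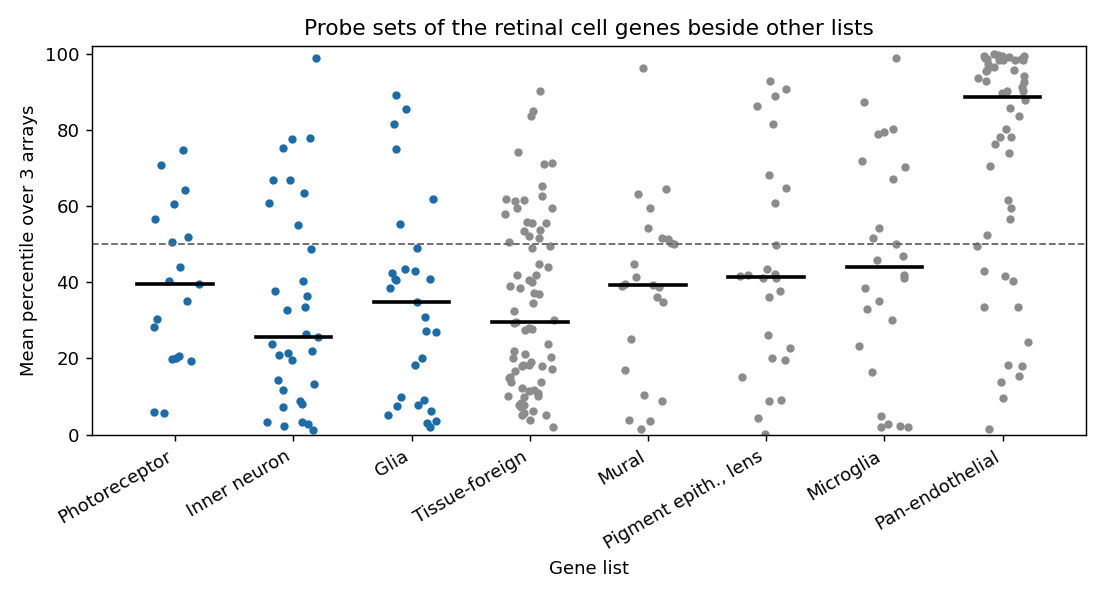
Mean position over 3 arrays (percentile, vertical) of each probe set in 8 gene lists, with the retinal cell genes in blue, the lists for comparison in grey, a black bar at each list's median and a dashed line at the array median. The medians of the retinal cell classes (39.5, 25.5 and 34.8) lie on both sides of the tissue-foreign median of 29.5 and far from the pan-endothelial 88.7. The photoreceptor probe sets are all on design A, where the tissue-foreign median is 27.8. Their median lies near the mural median of 39.4.

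A stricter level was the 90th percentile of the tissue-foreign probe sets, which had intensities of 56.0, 70.5 and 61.1 in the design A replicates (51 probe sets) and 104.5, 93.7 and 92.1 in those of design C (17 probe sets). Design B, with 7 tissue-foreign probe sets, was not used for it. On designs A and C, 9 of 61 retinal cell probe sets exceeded this level on all 3 arrays (14.8%), 8 of 54 on A and 1 of 7 on C. The share was 23.9% of all 24290 probe sets (33.5% on A and 13.8% on C) and 61.9% of the pan-endothelial ones (26 of 42). It was 5.88% of the tissue-foreign ones (4 of 68), whose share is low by construction. The 9 belonged to Rom1 and Crx of photoreceptors, Calb2, Pcp2, Stmn2 and Tubb3 of neurons, and Car2, Glul and Sox9 of glia. None of the 14 probe sets of the phototransduction genes was among them, and none of the 6 astrocyte probe sets. Above the 40th percentile of the array, a lower floor, lay 26 of the 81 on all 3 arrays (32.1%, against 56.5% of all probe sets, with 56.6%, 56.4% and 56.4% on designs A, B and C, and 36.0% of tissue-foreign ones).

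**Figure D3:**
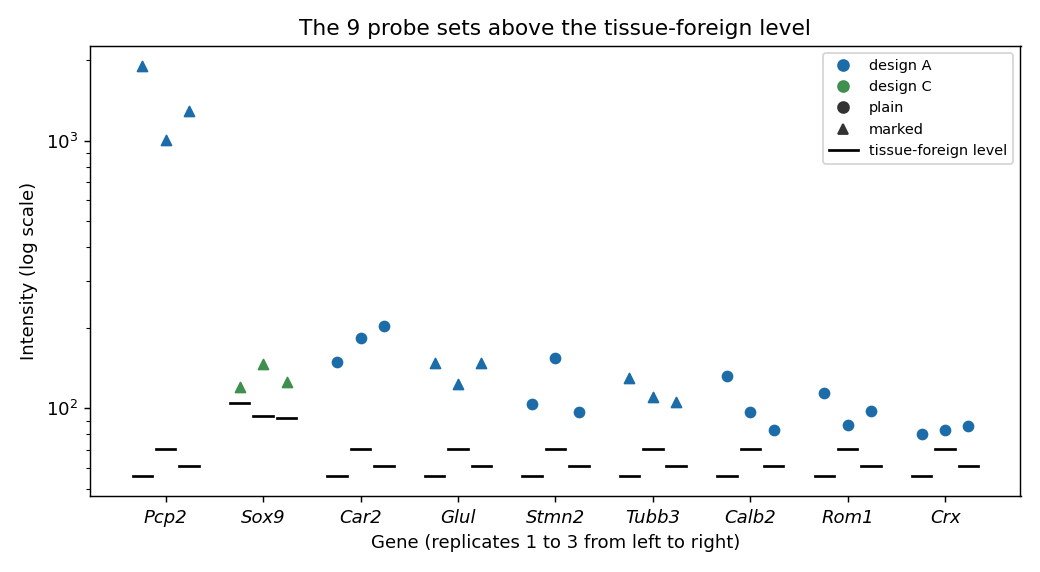
Intensity (log axis) on replicates 1 to 3 of the 9 probe sets of retinal cell genes that exceeded the tissue-foreign level, drawn as short black lines for each array; colour gives the design, and triangles are probe sets whose names mark them as shared or reduced. Pcp2 reads between 1008 and 1898, while Crx, Rom1, Calb2 and the Sox9 probe set come close to the level on at least 1 array.

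Promoter sequence gives another view of the photoreceptor genes, many of which are known targets of the homeodomain factor Crx. RefSeq promoter windows (build GRCm38.p6, 250 bases before to 50 after a start) were at hand for 12 of the 16 genes. The letters TAATCC, the core that Crx binds, or their reverse complement GGATTA, occurred in 5 of these 12 windows (41.7%), in 1 of 16 windows of neuronal genes, in 1 of 10 of glial genes and in 7.06% of all 32851 windows. The letters TGCTGA or TCAGCA, part of a site for the rod factor Nrl, occurred in 3 of the 12 (25.0%) and in 19.5% of all windows. A match is a description and not a site. These 5 windows are shown because they hold the Crx letters, in capitals on either strand, while the probe sets of their genes took opposite calls, above the median for Crx and Sag and below it for Cnga1, Gnat2 and Guca1a.
Crx, chr7:15879906-15880205, reverse strand: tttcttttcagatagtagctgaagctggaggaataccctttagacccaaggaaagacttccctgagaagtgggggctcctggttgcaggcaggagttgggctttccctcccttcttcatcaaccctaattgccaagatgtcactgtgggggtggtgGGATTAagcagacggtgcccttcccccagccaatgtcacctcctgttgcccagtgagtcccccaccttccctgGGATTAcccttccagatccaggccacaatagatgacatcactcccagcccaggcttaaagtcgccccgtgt
Sag, chr1:87803430-87803729, forward strand: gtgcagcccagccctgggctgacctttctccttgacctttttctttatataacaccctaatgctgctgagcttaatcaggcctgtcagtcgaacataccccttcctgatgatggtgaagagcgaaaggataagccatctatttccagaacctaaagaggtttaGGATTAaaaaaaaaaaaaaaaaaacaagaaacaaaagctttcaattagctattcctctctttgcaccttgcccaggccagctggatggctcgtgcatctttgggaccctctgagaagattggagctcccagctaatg
Cnga1, chr5:72642703-72643002, reverse strand: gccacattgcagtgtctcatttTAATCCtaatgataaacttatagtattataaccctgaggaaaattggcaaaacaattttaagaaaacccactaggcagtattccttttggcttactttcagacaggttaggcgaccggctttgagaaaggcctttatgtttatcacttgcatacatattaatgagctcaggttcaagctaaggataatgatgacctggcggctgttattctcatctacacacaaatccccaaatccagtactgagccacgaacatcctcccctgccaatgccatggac
Gnat2, chr3:108092816-108093115, forward strand: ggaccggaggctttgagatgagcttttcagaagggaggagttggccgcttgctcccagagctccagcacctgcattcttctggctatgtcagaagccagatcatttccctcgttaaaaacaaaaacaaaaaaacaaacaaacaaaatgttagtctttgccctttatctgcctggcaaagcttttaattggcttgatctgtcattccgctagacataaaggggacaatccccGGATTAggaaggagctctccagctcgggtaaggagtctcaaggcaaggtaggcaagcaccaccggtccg
Guca1a, chr17:47400557-47400856, reverse strand: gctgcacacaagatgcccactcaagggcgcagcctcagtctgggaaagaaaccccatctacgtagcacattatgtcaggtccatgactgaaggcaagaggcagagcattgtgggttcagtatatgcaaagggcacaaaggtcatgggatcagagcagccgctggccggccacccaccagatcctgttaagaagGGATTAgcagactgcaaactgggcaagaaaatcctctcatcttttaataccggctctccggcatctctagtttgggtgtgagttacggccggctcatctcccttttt

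Crx, the homeodomain transcription factor that switches on photoreceptor genes, was called above the median by its single probe set. Its design A intensity was 80.6, 83.2 and 86.2 in replicates 1 to 3, at position 70.8 ± 1.26 (SD, n = 3) and 0.92 ± 0.071 (SE) above the array median on the log2 scale (limma, adjusted p = 1.7e-05). The 3 arrays lay close together and all exceeded the tissue-foreign level. On design A, 3 tissue-foreign probe sets also exceeded that level. They belonged to Tnp1 (74.2 ± 1.18), Sftpb (71.2 ± 2.94) and Ctrb1 (71.1 ± 2.03), each with a higher mean position than Crx. Nrl, the rod-determining factor, read 18.2, 18.8 and 22.8, at 19.9 ± 2.96, and was called below (limma, adjusted p = 1.7e-05). The 2 regulators thus took opposite calls.

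Of the phototransduction genes, 2 were called above the median. Sag, the arrestin that quenches rhodopsin, read 52.8, 89.7 and 62.2, at position 64.1 ± 7.58 and a log2 difference of 0.6 ± 0.142 (limma, adjusted p = 0.0062). Opn1mw, the middle-wavelength cone opsin, read 75.5, 48.3 and 56.3, at 60.4 ± 7.47 and 0.42 ± 0.13 (limma, adjusted p = 0.019). Both spread widely between arrays, with Sag highest on replicate 2 and Opn1mw on replicate 1. The Opn1mw call was lost without replicate 1 (limma, log2 difference 0.24, adjusted p = 0.09) and with 50 added to each intensity (0.22, adjusted p = 0.052).

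The other phototransduction genes were below the median or near it. Gnat1, the rod transducin alpha subunit, read 26.1, 10.97 and 21.3 (19.3 ± 11.6) and varied the most of all 81 probe sets, by 1.27 log2 units. Its cone counterpart Gnat2 read 20.1, 20.1 and 20.9, at 20.6 ± 0.376, with almost no spread. The rod channel subunit Cnga1 read 8.18, 9.28 and 11.8 (5.83 ± 1.63). All 3 genes were called below by the fit (limma, adjusted p = 0.0014, 6.2e-06 and 1.9e-06).

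Of the rod phosphodiesterase, Pde6a (catalytic alpha subunit) stood at 40.3 ± 3.02 and Pde6g (inhibitory subunit) at 43.9 ± 2.47, both called below. Pde6b, the catalytic beta subunit, had a probe set called below at 20.1 ± 5.76 and another, at 50.5 ± 6.98, that was not called. Also called below were the calcium sensor recoverin, Rcvrn (39.5 ± 2.48), the guanylate cyclase activator Guca1a (28.2 ± 1.36) and the short-wavelength cone opsin Opn1sw (30.3 ± 1.48). Phosducin, Pdc, which binds transducin beta-gamma, had a probe set called below at 35.0 ± 2.48 and an uncalled one at 56.6 ± 9.81 (SD, n = 3 each), which was called above without replicate 1 (limma, log2 difference 0.47, adjusted p = 0.013). The 10 calls below thus included subunits of the same complex, and none of the 14 probe sets of these 12 genes exceeded the tissue-foreign level. The Pde6g call rested on a log2 difference of -0.23 and was lost without replicate 2 or without replicate 3 (limma, adjusted p = 0.092 and 0.091).

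The outer segment rim proteins Prph2 and Rom1 form a complex that shapes the discs. Prph2 read 41.6, 53.2 and 44.8, at 51.9 ± 4.49, and was not called (limma, adjusted p = 0.47). Rom1 read 114, 86.5 and 98.1 on a probe set at 74.7 ± 3.16 (log2 difference 1.17 ± 0.098, adjusted p = 2.7e-05), but 8.72, 11.3 and 8.57 on another at 5.63 ± 1.54. The 2 Rom1 probe sets did not overlap on any array, and the lower one carries a mark for sequence shared within a gene family.

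A further 34 photoreceptor genes had been listed, of which 16 were measured, on 22 probe sets. Here 13 were called above the median (59.1%, against 44.1% of all probe sets) and 7 below (31.8%, against 44%). Their median position was 59.8. Those highest were Guca1b, a guanylate cyclase activator, at 94.1 ± 1.43 on design C, Gnb1, a G protein beta subunit, at 92.7 ± 1.04 on design A, and Prom1, a membrane protein of photoreceptor discs, at 91.7 ± 1.59 on design A. Gnb1 is made by most cell types, and Prom1 by several besides photoreceptors. Other genes with a probe set called above were Gnb5 (80.0 ± 1.97), the retinoid transporter Abca4 (74.3 ± 4.6), Tulp1 (72.6 ± 2.16), the guanylate cyclase Gucy2e (68.6 ± 1.38), Rgs9 (62.9 ± 1.76) and Unc119 (55.2 ± 2.42). The other Rgs9 probe set was called below, at 10.8. Abca4 and Tulp1 are known chiefly from photoreceptors, and both exceeded the tissue-foreign level on design A. So did Prom1, Gnb5 and the highest Gnb1 probe set on design A, and Guca1b on design C. Of the 20 probe sets of these further genes on designs A and C, 7 exceeded it (35.0%). Most of the 20 were on design A, where 33.5% of all probe sets exceeded it. The share of all probe sets was 13.8% on design C and 23.9% on both. The Tulp1 position lay between those of the tissue-foreign Sftpb (71.2 ± 2.94) and Tnp1 (74.2 ± 1.18) probe sets of design A.

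Of the genes of ganglion cells, the output neurons whose axons form the optic nerve, Pou4f1, a ganglion cell transcription factor, read 10.6, 12.8 and 12.9 on design B, at 8.81 ± 1.71, and was called below. Neurofilament genes were split. Nefl, the light chain, was called below on designs A (19.5 ± 2.29) and B (2.92 ± 1.6) but above on design C, where it read 39.7, 42.5 and 46.3 (60.7 ± 3.22; log2 difference 0.39 ± 0.08, limma, adjusted p = 0.0045). That probe set is marked as incomplete. Nefm, the medium chain, read 67.9, 58.3 and 62.8 on a design B probe set called above (63.4 ± 2.2; 0.53 ± 0.079, adjusted p = 0.00047), and was called below on another of design B (32.6 ± 2.06) and on design A (23.7 ± 3.15). Gamma-synuclein, Sncg, had a probe set called below (20.8 ± 0.714) and an uncalled one at 48.6 ± 2.53. No ganglion cell probe set on design A or C exceeded the tissue-foreign level.

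Amacrine and horizontal cells, the inhibitory interneurons, had 7 low probe sets of 4 genes and higher ones of 3 others. Pax6, the eye-field factor kept by amacrine and ganglion cells, had intensities of 6.62, 7.77 and 7.01 (3.24 ± 0.399). The GABA-synthesising enzyme Gad1 stood at 2.40 ± 0.312 (design A) and 13.2 ± 2.14 (design B), and the vesicular GABA transporter Slc32a1 at 7.37 ± 1.23. Calb1, calbindin, stood at 25.5 ± 6.34 (design A), 11.8 ± 2.27 and 3.40 ± 1.67 (both design B). All 7 of these probe sets were called below the median, and no array of any of them exceeded the 40th percentile.

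Calb2, calretinin, is a calcium buffer of amacrine and ganglion cells and a paralog of calbindin. It read 133, 97.2 and 82.7 on design A, at 75.2 ± 4.71, with a log2 difference of 1.21 ± 0.135 (limma, adjusted p = 0.00012). Replicate 1 was highest and all arrays exceeded the tissue-foreign level. The horizontal cell factor Lhx1 read 48.3, 46.9 and 55.4 (55.0 ± 3.33) and was not called (adjusted p = 0.064). Tfap2a, an amacrine cell factor, was called below on design A by its pair of probe sets (21.9 ± 2.52 and 21.5 ± 5.29) and above on design C, where it read 48.5, 49.4 and 53.6 (66.7 ± 2.09; 0.63 ± 0.074, limma, adjusted p = 0.00038) without exceeding the tissue-foreign level.

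Pcp2, a G protein modulator of rod bipolar cells and Purkinje cells, gave the highest value of all. A probe set of design A read 1898, 1008 and 1289, at 98.8 ± 0.705 and 4.94 ± 0.167 log2 units above the array median (limma, adjusted p = 4e-07). The other probe set on the same arrays read 17.1, 16.2 and 15.3, at 14.3 ± 1.92, and was called below (adjusted p = 2.5e-06). The gap of 84.5 percentile points between them held on each array. The high probe set carries the mark for reduced probe selection rules and the low one carries no mark. The high one was the only probe set of the 45 genes with a mean position of 90 or more, which 3615 of all probe sets reached.

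Genes shared by most neurons were also split by probe set. Stmn2, a growth-cone tubulin regulator, read 104, 154 and 97.2 on 1 probe set (77.8 ± 4.29; log2 difference 1.4 ± 0.134, limma, adjusted p = 5.5e-05), but stood at 40.2 ± 2.72 and 8.17 ± 0.764 on the others, both called below. Tubb3, the neuronal tubulin, read 130, 110 and 106 on 1 probe set (77.7 ± 1.99; 1.38 ± 0.089, adjusted p = 6.8e-06) and stood at 37.6 ± 2.87 on the other, which was called below. Both Tubb3 probe sets are marked for sequence shared within a family, and tubulin genes resemble each other closely.

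The synaptic vesicle calcium sensor Syt1 had the lowest position of all 81 probe sets, with 4.75, 4.14 and 4.6 on design A (1.19 ± 0.34). On design B it read 75.1, 64.0 and 70.5 on a probe set called above (66.8 ± 2.28; log2 difference 0.67 ± 0.079, limma, adjusted p = 0.00012) and stood at 36.3 ± 11.6 on another called below. The last of these calls was lost without replicate 1 or replicate 3 (limma, adjusted p = 0.073 and 0.071). Snap25, the synaptic membrane fusion protein, was called below on both designs, at 26.4 ± 6.79 (design A) and 33.5 ± 3.5 (design B).

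Among 43 further neuronal genes, 34 were measured on 67 probe sets, of which 38 were called below and 21 above, with a median position of 37.7. These shares were 56.7% and 31.3%, against 44% and 44.1% of all probe sets. The highest were Stmn3, another stathmin, at 96.9 ± 0.519 on a design C probe set marked for reduced rules, Atoh7, the ganglion cell competence factor, at 87.0 ± 1.05 on design C, and Vamp2, a vesicle fusion protein, at 83.7 ± 1.75 on design A. Genes of synapses and axons with a probe set called above were Syn1, Slc17a6, Stx1a, Slc6a9, Mapt, Map1b, Ina, Nefh, Uchl1 and Chga, at positions from 58.5 (Chga) to 80.3 (Syn1). The highest probe sets of Syn1, Slc17a6 and Ina are marked for sequence shared within a family. The RNA-binding Elavl3 (78.1 ± 1.85), the factors Isl1 (76.8 ± 0.374) and Ptf1a (66.7 ± 2.67), the bipolar cell channel Trpm1 (58.8 ± 3.03) and the kinase Prkca (58.3 ± 5.8) also had a probe set called above. Of the 34 genes, 11 had probe sets on both sides of the median, 5 had every probe set called above and 12 every one called below. Over all 15964 named genes, 3744 lay on both sides, 32.9% had every probe set called above and 28.2% every one below. The 3744 are 49.0% of the 7645 named genes with more than 1 probe set. A gene with 1 probe set, as some of the 34 are, cannot lie on both sides. The 11 neuronal genes on both sides were Atoh7, Chga, Elavl3, Ina, Isl1, Map1b, Mapt, Prkca, Ptf1a, Slc17a6 and Stmn3. Mapt was called below by 5 of 6 probe sets, Ptf1a by 3 of 4 (24.2 ± 2.2, 8.64 ± 2.55 and 2.07 ± 1.58), Elavl3 by 2 of 4 (40.6 ± 2.77 and 19.7 ± 2.41) and Isl1 by 1 of 2 (19.4 ± 0.499). The lowest Stmn3 and Atoh7 probe sets stood at 4.8 and 9.29. Vamp2, Stx1a and Prkca are also made outside neurons.

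Of the Muller glial genes, Car2, a carbonic anhydrase, was called above by its single probe set. It read 149, 184 and 204 on design A, at 85.4 ± 2.79 and 2.01 ± 0.099 log2 units above the median (limma, adjusted p = 1.9e-06), and every array exceeded the tissue-foreign level. Carbonic anhydrase II is also made by erythroid and other cells. The related Car14 was not called on design A (43.0 ± 6.61) or design B (55.3 ± 4.18), although leaving out replicate 2 on design A gave a call below (limma, log2 difference -0.39, adjusted p = 0.0057) and leaving out replicate 1 on design B a call above (0.28, adjusted p = 0.03).

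Glutamine synthetase, Glul, which detoxifies glutamate in Muller cells and is also made by other cell types, had 4 probe sets. On design A it read 148, 123 and 147 on one (81.5 ± 2.55; log2 difference 1.66 ± 0.086, limma, adjusted p = 2.4e-06) and 7.57, 7.54 and 6.89 on another (3.48 ± 0.558). On design B it read 76.2, 106 and 97.2 on one (75 ± 5.12; 1.08 ± 0.107, adjusted p = 4.6e-05) and 30.9, 41.2 and 33.1 on another (40.9 ± 6.43). The call below of this last probe set was lost without replicate 1 or replicate 3 (limma, adjusted p = 0.085 and 0.097). Within a design the high and low probe sets did not overlap on any array. The high one of design A is marked for reduced rules and the high one of design B is unmarked.

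Sox9, a glial and progenitor transcription factor, had 5 probe sets, of which 1 was called above. That one, marked for sequence shared within a family, read 121, 146 and 126 on design C (89.2 ± 2.08; log2 difference 2.0 ± 0.083, limma, adjusted p = 6.4e-06). The others, called below, stood at 38.6 ± 3.37 and 7.47 ± 3.87 on design C and at 42.4 ± 4.1 and 1.96 ± 0.159 on design B. The call at 42.4 was lost without replicate 1 or replicate 3 (limma, adjusted p = 0.1 and 0.079).

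Channels and a transporter of the Muller cell membrane lay low. Kcnj10, the potassium channel that drains extracellular potassium towards vessels, read 11.3, 10.3 and 12.4 on design B (7.74 ± 1.09) and was called below. Aqp4, the water channel of perivascular endfeet, was called below by all 3 probe sets, at 20.1 ± 1.59, 10.0 ± 1.82 and, on design B, 6.19 ± 1.94. The glutamate transporter Slc1a3 was called below by both design B probe sets, at 5.14 ± 0.381 and 43.5 ± 2.45, the last of which lost its call without replicate 1 or replicate 2 (limma, adjusted p = 0.11 and 0.079). None of the 6 probe sets of these 3 genes was called above.

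Rlbp1, the retinaldehyde-binding protein of Muller cells and pigment epithelium, was called below at 27.0 ± 1.06. Dkk3, a secreted Wnt modulator, was called below at 9.15 ± 0.569 (design A) and 40.9 ± 4.88 (design B), and the design B call was lost without replicate 1 (limma, adjusted p = 0.059). Clusterin, Clu, a secreted chaperone made by many cell types, had a probe set called below (40.7 ± 2.17) and an uncalled one at 49.1 ± 1.42.

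Retinal astrocytes form the template on which vessels spread. Gfap, their intermediate filament, read 61.4, 65.1 and 57.6 on a design A probe set called above (61.9 ± 1.65; log2 difference 0.48 ± 0.076, limma, adjusted p = 0.0008) and was called below by another of design A (18.3 ± 3.4) and by one of design C (31.0 ± 2.14). The high probe set is marked as common to a group of transcripts and stayed under the tissue-foreign level on at least 1 array. Pax2, the astrocyte lineage factor, was called below at 34.8 ± 6.05, and S100b, a glial calcium-binding protein, at 27.3 ± 1.05 (design A) and 3.14 ± 1.52 (design C). In all, 5 of the 6 astrocyte probe sets were called below.

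Of 24 further glial genes, 22 were measured on 51 probe sets, with 26 called below and 19 above and a median position of 43.7. These shares were 51.0% and 37.3%, against 44% and 44.1% of all probe sets. The highest were the gap junction protein Gja1 at 98.2 ± 0.637, the tetraspanin Cd9 at 94.4 ± 0.685 and the intermediate filament nestin, Nes, at 92.6 ± 1.1, all on design A. The Notch target Hes1 (88.7 ± 0.711), Id3 (83.8 ± 2.22) and Vim (63.3 ± 5.01) were called above by their single probe sets. Another Notch target, Hes5 (88.8 ± 0.852 on design C), Apoe (89.5 ± 2.91) and Cd44 (67.7 ± 5.86) had probe sets on both sides. The highest Hes5 probe set is marked as incomplete. Hes5 was called below by 2 of 4 probe sets (31.5 ± 1.8 and 1.56 ± 0.361), Apoe by 1 of 3 (11.8 ± 3.13) and Cd44 by 3 of 5 (21.7 ± 2.66, 15.3 ± 1.53 and 0.778 ± 0.595). Gja1, Cd9, Nes, Hes1, Id3 and Vim are known in endothelial cells too, so their positions do not separate the cell types. Aldh1l1, Fabp7, Ntsr2, Slc1a2, Gjb6 and Ptgds also had at least 1 probe set called above, the highest of each at positions from 60.2 (Ptgds) to 81.1 (Aldh1l1). Which cells gave the signal of these 6 genes was not tested. Of these, Gjb6 was called below by 3 of 4 probe sets (18.3 ± 2.82, 11.6 ± 1.21 and 0.594 ± 0.13), Fabp7 by 1 of 3 (0.403 ± 0.306), Aldh1l1 by 1 of 2 (19.9 ± 1.64) and Slc1a2 by 1 of 3 (43.7 ± 0.473). Ptgds had 2 probe sets that were not called, and Ntsr2 had 1 probe set. The highest probe sets of Aldh1l1, Fabp7, Gjb6 and Ptgds are marked for sequence shared within a family. Fabp7 also had an unmarked one called above, at 76.5 ± 4.64 on design A. The highest Gja1 probe set carries the same family mark, and the other Gja1 probe set was not called (50.6 ± 10.2, design A). In all, 8 of the 22 genes lay on both sides, Nes among them with its lowest probe set at 15.7. Over all 15964 named genes 3744 did, which is 49.0% of the 7645 with more than 1 probe set. Some of the 22 have 1 probe set and cannot lie on both sides.

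Probe sets of the same gene often disagreed, at a share near that of all named genes. The widest gaps in mean position were 87.2 points for Sox9, 84.5 for Pcp2, 78.0 for Glul, 69.6 for Stmn2 and 69.1 for Rom1. Where a gene lay on both sides, the highest probe set carried a mark in 6 of 11 genes (Gfap, Glul, Nefl, Pcp2, Sox9 and Tubb3). In Affymetrix names such marks denote probes shared within a group or family, an incomplete probe set or relaxed selection rules. Among the retinal cell genes, 6 of the 17 probe sets called above were marked (35.3%) and 11 of the 56 called below (19.6%), against 22.4% and 27.6% among all probe sets. Of the 62 unmarked probe sets, 11 were called above (17.7%, against 45.2% of all unmarked ones) and 45 below (72.6%, against 42.1%). On designs A and C, 5 of 44 unmarked ones exceeded the tissue-foreign level (11.4%, against 24.3% of all unmarked ones). These 5 belonged to Crx, Rom1, Calb2, Stmn2 and Car2. The part of shared or reduced probes in the high positions was not tested.

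**Figure D4:**
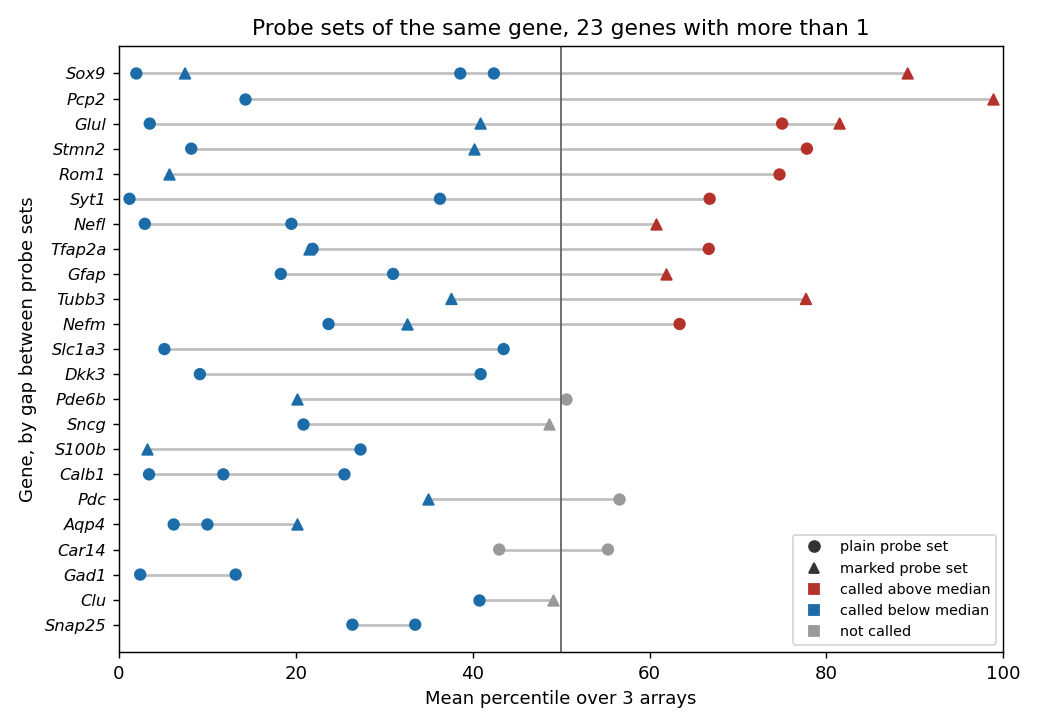
Mean position over 3 arrays (percentile, horizontal) of each probe set of the 23 genes with more than 1, ordered by the gap between them; triangles are marked probe sets, and colour gives the limma call. Genes at the top, from Sox9 down to Nefm, have probe sets called on both sides of the array median, and those below do not.

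The replicates held the retinal cell genes at similar levels. The median range of a probe set over its 3 arrays was 0.25 log2 units, the same as over all probe sets. A range over 1 log2 unit occurred in 1 of 81 probe sets, that of Gnat1 (1.23%, against 1.77% of all). After centring on the array median, the median deviation of the 54 probe sets on design A from their own means was -0.03, 0.00 and 0.02 on replicates 1, 2 and 3. On design B, with 20 probe sets, it was -0.09, -0.01 and 0.08, beside 0.00, 0.00 and -0.01 over all probe sets. There replicate 1 was the highest array for 3 of 20 members, against 36.1% of all probe sets. It was the highest for none of the 10 glial probe sets, whose median deviation was -0.14 on replicate 1. Among design B probe sets above the floor on all 3 arrays, replicate 1 was highest for 2 of 5 members, against 38.2% of all. The glial probe sets of design C went the other way, with replicate 1 highest for 3 of 5 (median deviation 0.14). The 19 photoreceptor probe sets deviated by -0.08, -0.03 and 0.04, and Sag and Pdc were highest on replicate 2 whereas Gnat1 and Opn1mw were highest on replicate 1. Those genes had the widest spreads of the 19 photoreceptor probe sets and did not share 1 high array, though Gnat1 lay below the floor on every array. Of the further photoreceptor genes, Neurod1 spread more widely on design A, with 38.5, 113.6 and 33.3 on replicates 1, 2 and 3. That range was 1.78 log2 units, and the probe set was not called. Its design B probe set was highest on replicate 3, with a range of 1.0. Whether high values fell on a shared array was not tested.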

How the data were processed

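The authors deposited linear intensities from Affymetrix MG-U74v2 arrays, with 3 tables, one to a design. Their summary method, background correction and scaling are not named in any label or file header, and no detection calls were used. Probe sets took symbols from the platform annotation: 29131 of 36701 had 1 symbol, 724 several and 6846 none, and all 81 member probe sets kept their symbol when matched by Entrez identifier to RefSeq for GRCm38.p6. Marks of shared or reduced probe sets (_f, _s, _g, _i, _r) were read from probe set names.

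Values of 0 (7 in all, none in a member) were replaced by the lowest value above 0 on that array. The log2 of each intensity minus the array's median was fitted on each design with limma 3.58.1 (R 4.3.3; intercept, empirical Bayes, Benjamini-Hochberg over all probe sets of the design), after the script was tested on simulated data. Tables of different designs were not compared by intensity. Alternatives were 50 added before logarithms, quantile normalization, unmarked probe sets alone, a low-value filter, levels at the 40th and 60th percentiles, and leaving out each replicate.

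The members, lists, tests and alternatives were chosen with earlier results of these data known. By rule, every member is named, with values on each array for those called above the median and for the highest and lowest of each class, and, of further class genes, all with a probe set called above.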

Additional observations from a re-analysis of the deposited data

How the results depend on the processing

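The count called above the median was 16 to 24 of 81 under an added 50, quantile normalization and the 40th percentile, beside 17. It was 12 at the 60th percentile and 17 to 18 when a replicate was left out. With unmarked probe sets alone it was 11 of 62. The count called below was 42 to 61 under the other levels and 51 to 55 without a replicate, beside 56. It was 12 where only probe sets over the 40th percentile on at least 1 array were tested, since 37 of the 81 then remained. Of those 37, 17 were called above, so calls above outnumbered calls below under this low-value filter. The filter removes low probe sets by construction, and the shares over all filtered probe sets are not given here. By class, the count called above was 7 at the 40th and 2 at the 60th percentile for photoreceptor probe sets, beside 4, and with unmarked probe sets alone 5 for neuronal ones, beside 8, and 2 for glial ones, beside 5. Under the low-value filter the counts below were 3, 2 and 7 for photoreceptor, neuronal and glial probe sets, beside 12, 23 and 21. Above the floor lay 40 at a 30th and 19 at a 50th percentile floor, beside 26, and 26 to 31 without a replicate. Above the tissue-foreign level lay 12 at its 75th percentile and 9 to 10 without a replicate, beside 9.

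Probe sets near the middle changed sign with the level. At the 40th percentile, log2 differences of Car14 on design A (0.11), Clu (0.33 and 0.02), Dkk3 on design B (0.02), Glul on design B (0.03), Pde6a (0.01), Pde6g (0.14), Slc1a3 (0.12), Sncg (0.31), Sox9 on design B (0.08) and Stmn2 (0.01) turned positive, as the construction of a lower level implies. At the 60th percentile, Car14 on design B (-0.18), Lhx1 (-0.20), Pdc (-0.12), Pde6b (-0.37) and Prph2 (-0.32) turned negative. Pde6b was -0.12 without replicate 3 and Prph2 -0.03 without replicate 2; neither was called with all arrays or in these fits. No paired analysis was possible because all arrays belong to 1 condition and no groups were contrasted. The scaling behind the deposited intensities is unknown, and signal over background cannot be given without detection calls.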
